A study of Mus musculus with 7 samples.

Results

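Antigen presentation genes were examined in mouse stem cells of blood formation, sorted from fetal liver on embryonic day 14.5. The set held 10 of the 12393 genes measured on the array. Class II presentation was represented by H2-DMa, H2-Aa, H2-Ab1, H2-Eb1, Cd74 and Ciita, and class I presentation by B2m, Tap1, Tap2 and Tapbp. Every probe set naming one of these genes alone was used, 19 in all, and none was dropped for a low signal. The genes were named for their function, and the set was drawn up around H2-DMa, which was selected on its lower array signal in the mutant than in wild type. The genotype difference of H2-DMa is therefore a description, given without a test.

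The mutant group was TFIIAα-β nc/nc, written TFIIA nc/nc below. It is homozygous for a form of the large subunit of the general transcription factor TFIIA that cannot be cleaved. It held 3 samples, pooled from 2, 2 and 4 littermate embryos. The wild-type group held 4 samples, of 1, 1, 4 and 3 embryos. Both genotypes came from crosses of heterozygous parents, and neither the mouse strain nor the cell types in which the allele acts are stated in the labels. Lineage-negative cells carrying CD150, c-Kit and Sca-1 were sorted a second time before RNA was taken, and each sample was hybridised to 1 Affymetrix array. The samples are labelled biological replicates, and their number limits the precision of every value. Levels are log2 of the deposited intensity, and differences are TFIIA nc/nc minus wild type on that scale.

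Class II molecules display peptides from the endosome to CD4 T cells. The α and β chains are assembled on the invariant chain, the DM heterodimer exchanges the last piece of that chain for a peptide, and the coactivator CIITA switches the chain genes on. Class I molecules display cytosolic peptides to CD8 T cells on nearly all nucleated cells. Their heavy chain pairs with β2-microglobulin and is loaded in the endoplasmic reticulum with peptides brought in by the TAP transporter and bridged to it by tapasin. Class II is best known from dendritic cells, B cells and macrophages.

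The arrays correlated pairwise at 0.966 to 0.991 and had medians of 3.69 to 3.82. Transcripts of liver sinusoidal endothelium were high in 3 arrays. Averaged over 10 such genes, log2 levels reached 6.59 in TFIIA nc/nc replicate 1, 7.18 in replicate 2 of that genotype and 6.80 in wild-type replicate 1. The other arrays had averages of 3.34 in TFIIA nc/nc replicate 3 and 3.14 to 3.33 in wild-type replicates 2 to 4. Of the markers used for the sort, Kit read 7.50 to 8.18 in TFIIA nc/nc and 7.61 to 9.06 in wild type, and Slamf1, which encodes CD150, 6.23 to 6.92 in TFIIA nc/nc and 6.12 to 6.57 in wild type. Other stem cell genes were Hlf, at 7.30 to 7.95 in TFIIA nc/nc and 7.75 to 8.43 in wild type, and Procr, at 5.99 to 6.58 in TFIIA nc/nc and 6.39 to 7.72 in wild type. Of the 6 such genes measured, Mecom alone lay below the median of every array. The level of each presentation gene in every array is plotted by genotype.

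**Figure D1:**
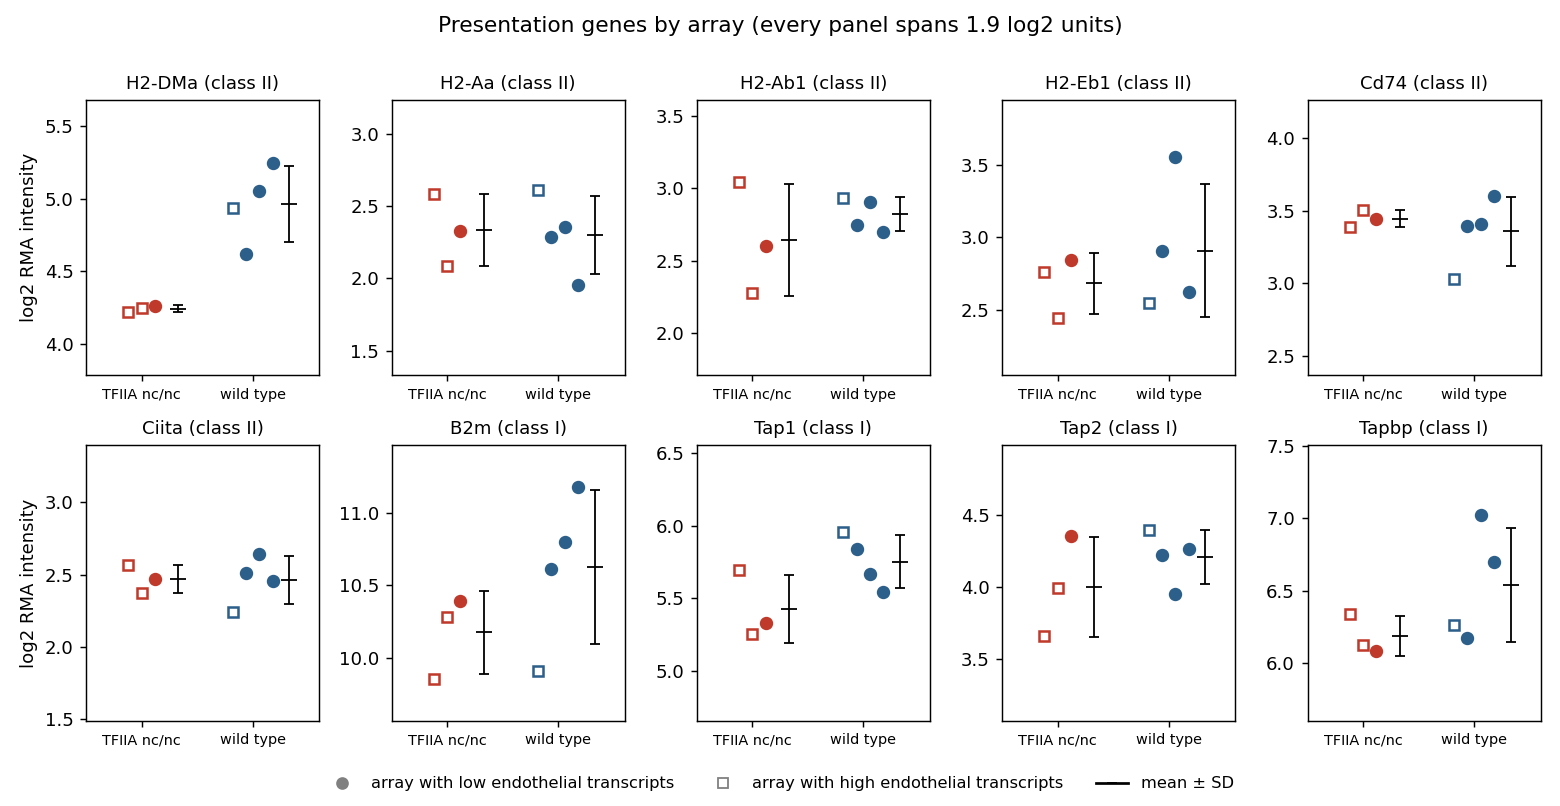
Log2 RMA intensity (vertical axis) of the 10 genes in each array, TFIIA nc/nc left and wild type right, with mean ± SD beside the points. Every panel spans 1.9 log2 units. Open squares are the 3 arrays with high endothelial transcripts. H2-DMa is the gene whose groups do not overlap.

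H2-DMa encodes the α chain of DM, the endosomal editor of class II peptides, and was read by a single probe set (Entrez gene 14998). Its log2 level was 4.22, 4.25 and 4.26 in TFIIA nc/nc replicates 1 to 3. In wild type it was 4.94, 4.62, 5.05 and 5.25 in replicates 1 to 4. All 3 mutant samples lay below all 4 wild-type samples, and they lay close together, whereas the wild-type samples were spread. TFIIA nc/nc averaged 4.24 ± 0.02 (SD, n = 3), and wild type averaged 4.97 ± 0.26 (SD, n = 4). The difference was −0.73 (SE 0.17), a signal 1.65-fold lower. In these bulk samples fewer cells that carry a transcript and less RNA per cell cannot be told apart.

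The H2-DMa difference is described here at each level of endothelial transcripts. Among the arrays with high endothelial transcripts the mean of the 2 TFIIA nc/nc samples was 4.23, and the wild-type sample read 4.94. Among the others the TFIIA nc/nc sample read 4.26 and the 3 wild-type samples averaged 4.98. The differences were −0.71 and −0.72, and each rests on 1 sample of one genotype. The part of endothelial cells in the H2-DMa levels was not tested. Without 1 array at a time the H2-DMa difference ranged from −0.84 to −0.63. On a log2(value + 16) scale, which compresses dim signals, it was −0.44. H2-DMa was chosen on these values and its groups do not overlap, so none of these settings could turn the sign.

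The other class II genes did not share that pattern. Their 9 probe sets lay between 1.76 and 3.60, below the median probe set of the same array in all 7 arrays. RMA gives a value to every probe set, and no detection calls were used, so whether these transcripts were present at all cannot be read from such levels. H2-DMa lay above 54.4% to 64.5% of the probe sets of its array. Brightness depends on the probes as well as the transcript, so this share places each gene on its own array and does not rank the genes in abundance.

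**Figure D2:**
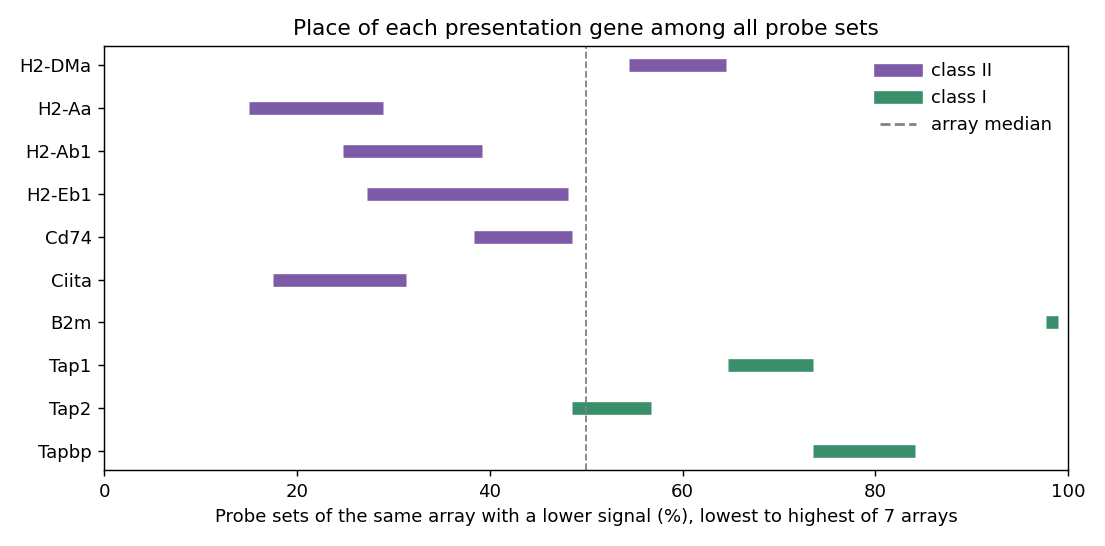
Percentage of the probe sets of the same array with a lower signal (horizontal axis) for each presentation gene, drawn from the lowest to the highest of the 7 arrays. H2-Aa, H2-Ab1, H2-Eb1, Cd74 and Ciita stay left of the array median (dashed), H2-DMa and 3 of the 4 class I genes lie right of it, and Tap2 crosses it.

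H2-Aa encodes the α chain of the classical molecule I-A. It read 2.58, 2.09 and 2.33 in TFIIA nc/nc and 2.61, 2.29, 2.35 and 1.96 in wild type. Both groups covered nearly the same range, and the difference was 0.03 (SE 0.19). The dimmer H2-Aa probe set differed by −0.09, so the sign depended on the probe set. H2-Ab1, the β chain of I-A, read 3.04, 2.28 and 2.60 in TFIIA nc/nc and 2.93, 2.75, 2.91 and 2.70 in wild type. The wild-type samples lay inside the range of the mutant samples, and the difference was −0.18 (SE 0.19). The other H2-Ab1 probe sets differed by 0.25 and 0.06.

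H2-Eb1, the β chain of I-E, read 2.76, 2.45 and 2.84 in TFIIA nc/nc and 2.55, 2.91, 3.56 and 2.62 in wild type. The groups overlapped, and wild-type replicate 3 alone lay above 3. The difference was −0.22 (SE 0.25), and it was −0.01 without wild-type replicate 3. Cd74, the invariant chain, read 3.39, 3.51 and 3.44 in TFIIA nc/nc and 3.03, 3.39, 3.41 and 3.60 in wild type. The mutant samples lay within the wild-type range, with a difference of 0.09 (SE 0.16). Ciita, the class II coactivator, read 2.56, 2.37 and 2.47 in TFIIA nc/nc and 2.24, 2.51, 2.64 and 2.46 in wild type. Its groups also overlapped, and both Ciita probe sets gave a difference near 0, at 0.01 (SE 0.15) and −0.003.

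The promoters of classical class II genes carry an array of boxes, named X and Y, that the RFX complex and NF-Y bind and to which CIITA is recruited. The RefSeq promoter table of GRCm38.p6 held 6 of the 10 genes, in 7 windows. The 250 bases before each listed start are shown for H2-DMa, which has 2 listed starts, and for the dim classical genes H2-Aa and H2-Eb1. H2-DMa is shown because it was chosen for its lower signal, and no link between these letters and a genotype difference was tested. Capitals mark matches on either strand to the Y box CTGATTGG, the X box core AGCAACNGA, the cAMP response element TGACGTCA, the interferon response element or the gamma-activated site TTCNNNGAA. These 5 were kept from 9 motifs searched, with the matches already seen, and no match to one of the 5 overlapped another. Sequences run 5′ to 3′ on the strand of the gene.
H2-DMa, chr17:34122582-34122831, plus strand: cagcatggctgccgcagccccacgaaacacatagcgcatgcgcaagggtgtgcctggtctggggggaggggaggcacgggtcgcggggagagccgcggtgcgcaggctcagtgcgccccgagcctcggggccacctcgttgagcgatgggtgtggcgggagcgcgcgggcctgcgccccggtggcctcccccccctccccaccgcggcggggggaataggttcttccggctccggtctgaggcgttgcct
H2-DMa, chr17:34125268-34125517, plus strand: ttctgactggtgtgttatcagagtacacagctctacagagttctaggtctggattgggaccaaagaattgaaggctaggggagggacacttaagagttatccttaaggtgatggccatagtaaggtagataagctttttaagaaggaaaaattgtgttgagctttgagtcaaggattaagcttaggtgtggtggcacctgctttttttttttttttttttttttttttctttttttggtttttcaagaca
H2-Aa, chr17:34287824-34288073, minus strand: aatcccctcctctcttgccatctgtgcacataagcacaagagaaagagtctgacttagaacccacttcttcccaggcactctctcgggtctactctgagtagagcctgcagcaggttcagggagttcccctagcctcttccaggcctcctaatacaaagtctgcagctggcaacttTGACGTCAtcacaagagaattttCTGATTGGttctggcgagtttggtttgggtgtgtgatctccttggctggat
H2-Eb1, chr17:34305617-34305866, plus strand: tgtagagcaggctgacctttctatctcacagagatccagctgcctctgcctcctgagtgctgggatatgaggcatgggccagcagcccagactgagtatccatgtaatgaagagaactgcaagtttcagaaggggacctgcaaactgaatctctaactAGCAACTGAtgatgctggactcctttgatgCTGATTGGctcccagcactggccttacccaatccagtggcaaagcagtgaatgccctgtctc

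In H2-Aa the Y box began 51 bases and the cAMP response element 74 bases before the listed start. In H2-Eb1 the Y box began 62 bases and the X box core 92 bases before it. Neither H2-DMa window held any of the 5 motifs, which says only that these letters are not in these windows. The 4 motifs left unmarked were CCAAT, the shorter X box core GCAACNG, the NF-κB site GGGANTTCC and the W box core GGACC. One H2-DMa window held CCAAT, 198 bases before its start, and GGACC, 194 bases before it. CCAAT, which lies within the Y box on its other strand, was found in 6 of the 7 windows, GGACC in 5, GCAACNG in that of H2-Eb1 and GGGANTTCC in that of H2-Aa. The starts listed for H2-DMa need not be the one used in stem cells. Over all 32851 windows of this length the Y box was present in 3.83%, the X box core in 1.07%, the cAMP response element in 1.55%, the interferon response element in 2.98% and the gamma-activated site in 7.02%. The unmarked motifs were present in 33.8% (CCAAT), 10.2% (GCAACNG), 1.43% (GGGANTTCC) and 39.8% (GGACC).

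The class I genes read lower in TFIIA nc/nc by 0.21 to 0.45, with groups that overlapped. B2m, β2-microglobulin, was bright, above 97.7% to 98.9% of the probe sets of its array. It read 9.85, 10.28 and 10.39 in TFIIA nc/nc and 9.91, 10.61, 10.80 and 11.18 in wild type. All mutant samples lay below 3 of the wild-type samples, while wild-type replicate 1 lay among them. TFIIA nc/nc averaged 10.18 ± 0.29 (SD, n = 3), and wild type averaged 10.62 ± 0.53 (SD, n = 4), which differ by −0.45 (SE 0.28). The second B2m probe set also differed by −0.45.

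The B2m difference had opposite signs at the 2 levels of endothelial transcripts. Among the arrays with high endothelial transcripts the TFIIA nc/nc mean was 10.07 and the wild-type sample read 9.91, a difference of 0.16. Among the arrays with low endothelial transcripts the TFIIA nc/nc sample read 10.39 and the wild-type mean was 10.86, a difference of −0.47. Adjusted for the endothelial mean the difference was −0.17, and without wild-type replicate 1 it was −0.69. It was −0.27 without wild-type replicate 4 and −0.29 without TFIIA nc/nc replicate 1. The part of endothelial cells in the B2m levels was not tested.

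**Figure D3:**
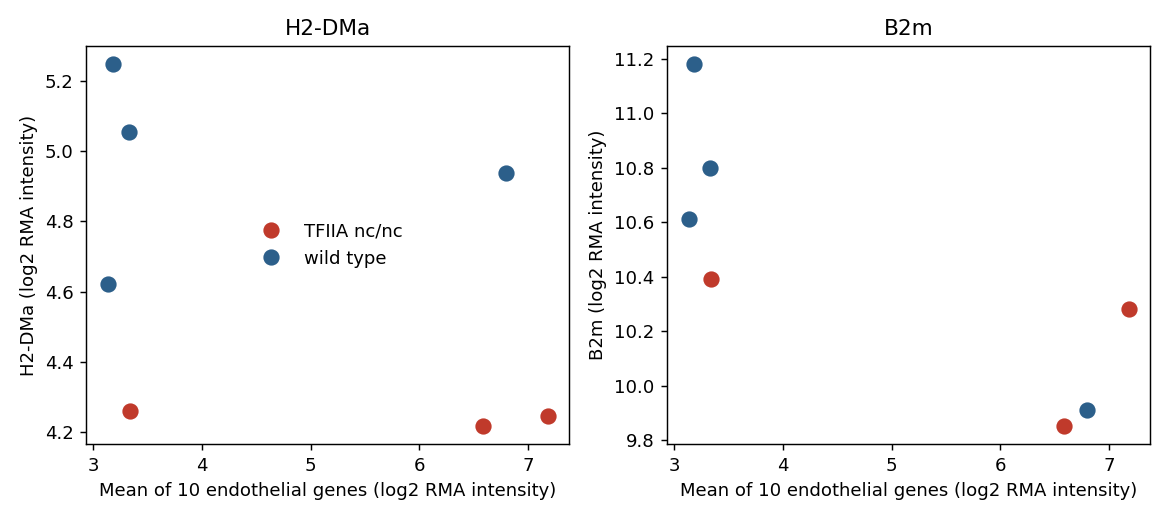
Log2 RMA intensity of H2-DMa (left) and B2m (right) against the mean log2 RMA intensity of 10 endothelial genes, 1 point per array. H2-DMa, chosen for its lower signal in TFIIA nc/nc, reads 4.22 to 4.26 in those 3 arrays. For B2m wild-type replicate 1, at 9.91, lies beside the TFIIA nc/nc arrays.

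The B2m window is shown because it is the bright class I gene and the one with an interferon response element. That motif began 139 bases before the listed start. It held none of the other marked motifs.
B2m, chr2:122147437-122147686, plus strand: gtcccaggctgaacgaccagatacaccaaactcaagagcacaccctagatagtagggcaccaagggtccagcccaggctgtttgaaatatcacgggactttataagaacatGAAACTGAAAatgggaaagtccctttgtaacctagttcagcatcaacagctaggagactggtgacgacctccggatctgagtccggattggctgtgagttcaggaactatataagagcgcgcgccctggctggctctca

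The TAP transporter is made of the Tap1 and Tap2 proteins. Tap1 read 5.70, 5.26 and 5.33 in TFIIA nc/nc and 5.96, 5.84, 5.67 and 5.55 in wild type. TFIIA nc/nc replicate 1, one of the arrays with high endothelial transcripts, lay inside the wild-type range, and the other mutant samples lay below it. The difference was −0.33 (SE 0.17), and it was −0.48 and −0.36 at high and low endothelial transcripts. The other Tap1 probe sets were dim and differed by −0.09, 0.11 and 0.10. Tap2 read 3.66, 3.99 and 4.35 in TFIIA nc/nc and 4.40, 4.22, 3.95 and 4.26 in wild type. The groups overlapped, with a difference of −0.21 (SE 0.19), which had opposite signs at high (−0.57) and low (0.20) endothelial transcripts. Leaving out TFIIA nc/nc replicate 1 gave −0.04, and leaving out replicate 3 of that genotype gave −0.38.

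Tapbp encodes tapasin. It read 6.34, 6.13 and 6.09 in TFIIA nc/nc and 6.26, 6.18, 7.02 and 6.70 in wild type. Wild-type replicates 3 and 4 lay above every mutant sample, while wild-type replicates 1 and 2 lay among them. The difference was −0.35 (SE 0.22), and it was −0.03 at high and −0.54 at low endothelial transcripts. Without wild-type replicate 3 it was −0.19. The dimmer Tapbp probe set differed by −0.15. Tap1 and Tapbp windows were searched too, and of the marked motifs only the Y box was found, in that of Tap1, 222 bases before its listed start.

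Over all 12393 genes the comparison of genotypes with limma called 1 gene at a Benjamini-Hochberg adjusted p under 0.05, or 0.00807%, the lysosomal hydrolase Galc. Of the 9 presentation genes other than H2-DMa, 0 passed in either direction, and 0 had an unadjusted limma p under 0.05, against 4.65% of all genes. That count of 0 did not hold in every setting, since B2m, Tap1 or Tapbp had such a p in 6 of 20 alternatives. The most extreme was Tapbp, with a difference of −0.74 (limma unadjusted p = 0.00227, adjusted p = 0.420) once a sex measure was a covariate. With that covariate 1123 of all 12393 genes had an unadjusted limma p under 0.05, against 576 in the main fit. In the main fit the smallest adjusted p among the 9 was 0.934 (limma, Benjamini-Hochberg). The samples of the genotypes did not overlap for 6.30% of all genes, and for 0 of the 9. The rule that chose H2-DMa used this comparison, so nothing is read from its lack of overlap. Median differences were 0.01 over the 5 class II genes other than H2-DMa, −0.34 over the 4 class I genes and −0.01 over all genes. Lower means were found for 2 of those 5 class II genes, 4 of 4 class I genes and 51.9% of all genes.

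**Figure D4:**
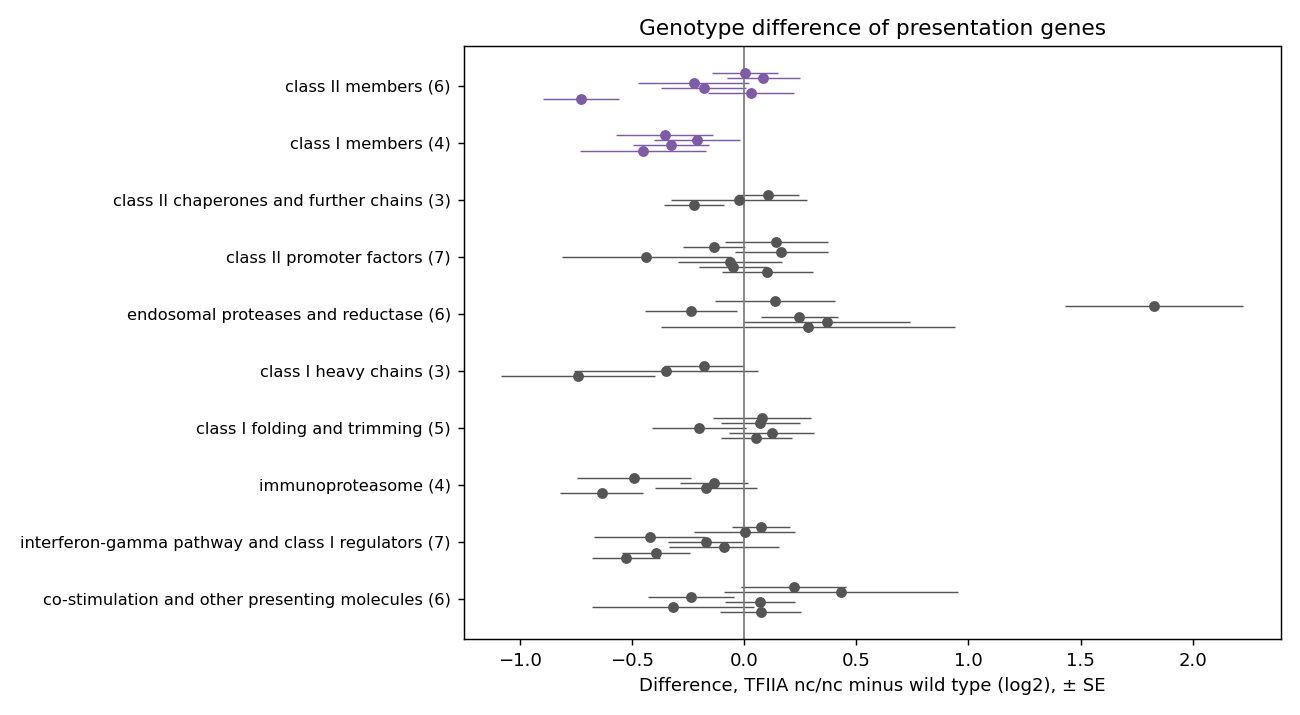
Difference between TFIIA nc/nc and wild type (log2, TFIIA nc/nc minus wild type, ± SE) for the class II and class I genes and for 41 further pathway genes by list. H2-DMa, at −0.73, is the lowest class II point, all 4 class I genes lie left of 0, and Lgmn, at 1.83, is the point far to the right.

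Of 50 further genes of the pathway, 41 were measured by a probe set naming them alone. With limma 0 of 41 passed, higher or lower, and 4 had an unadjusted p under 0.05, against 0.00807% and 4.65% of all genes. The groups did not overlap for 1 gene that was higher and 4 that were lower, against 3.23% and 3.07% of all genes. Lower means were found for 22 of the 41, and their median difference was −0.05.

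Of the genes for the partner chain of DM, H2-DMb1 and H2-DMb2, only H2-DMb2 was measured alone, and it was dim. The probe sets naming both genes differed by −0.005 and 0.05, with groups that overlapped. H2-DMb2 read 2.12, 1.97 and 2.03 in TFIIA nc/nc and 2.25, 2.41, 2.19 and 2.202 in wild type. The mutant samples lay just below the wild-type samples, with a difference of −0.22 (SE 0.13, limma adjusted p = 0.934), at a level where a signal cannot be told from none. H2-Ea, the α chain of I-E, differed by 0.11 (SE 0.14), and its dimmer probe sets by −0.11 and 0.02. Among 7 factors that act on class II promoters, Nfya, a subunit of the Y box factor NF-Y, differed by −0.44 (SE 0.38) and Nfyc by −0.13 (SE 0.14). None of the 7 passed, and 4 had lower means.

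The endosomal proteases prepare the invariant chain and the peptides. Lgmn, an asparaginyl endopeptidase, read 5.43, 6.03 and 5.03 in TFIIA nc/nc and 4.55, 3.93, 2.73 and 3.47 in wild type. Every mutant sample lay above every wild-type sample, and the difference was 1.83 (SE 0.40, limma adjusted p = 0.927). Adjusted for the number of embryos pooled, Lgmn passed (difference 2.01, limma adjusted p = 0.0451). Ctsb, the protease cathepsin B, differed by 0.25 (SE 0.17), and its dimmer probe sets by 0.12, 0.37 and −0.29. By the brightest probe set of each gene, 5 of the 6 genes in the list had higher means. Ctss, the cathepsin that trims the invariant chain in dendritic cells and B cells, read 3.06, 4.11 and 5.70 in TFIIA nc/nc and 4.08, 5.05, 2.63 and 4.25 in wild type, with groups that overlapped.

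Means of the 3 class I heavy chains measured were all lower in TFIIA nc/nc, though none of the 3 passed. H2-K1 read 7.56, 7.89 and 7.61 in TFIIA nc/nc and 7.45, 8.34, 9.12 and 8.80 in wild type. Wild-type replicate 1 lay below every mutant sample and the other wild-type samples above them. The difference was −0.74 (SE 0.34, limma adjusted p = 0.934), and all 4 H2-K1 probe sets had lower means. Of the 9 H2-D1 probe sets 7 had lower means, with differences of −0.59 to 0.17. Groups did not overlap for 2 of them, both lower, against 3.07% of all genes. The dimmer of those 2 averaged 1.74 in TFIIA nc/nc and 2.01 in wild type, where a signal cannot be told from none. The brightest H2-D1 probe sets, at −0.35 and −0.43, had groups that overlapped. Heavy chain genes such as H2-K1 and H2-D1 are closely alike in sequence, so signal from one on the probes of the other cannot be told apart. H2-M3, a nonclassical class I gene, differed by −0.18 (SE 0.18).

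Peptides for class I are cut by the immunoproteasome. Psmb8, one of its catalytic subunits, read 7.28, 7.37 and 7.58 in TFIIA nc/nc and 7.84, 7.81, 8.44 and 8.08 in wild type. No sample of one genotype lay within the range of the other, and the difference was −0.63 (SE 0.19, limma adjusted p = 0.934). Psme1, a subunit of the proteasome activator, differed by −0.49 (SE 0.25), and wild-type replicate 1, at 9.08, lay among the mutant samples. All 4 genes of the list had lower means and none passed.

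Irf1 is a transcription factor that drives class I genes and Ciita after interferon. It read 6.21, 6.32 and 6.60 in TFIIA nc/nc and 6.73, 7.02, 6.92 and 6.92 in wild type. The groups did not overlap, and the difference was −0.52 (SE 0.15, limma adjusted p = 0.934). Irf2, which binds the same element, read 5.97, 5.83 and 5.99 in TFIIA nc/nc and 6.07, 6.31, 6.49 and 6.42 in wild type, again without overlap, with a difference of −0.39 (SE 0.15, limma adjusted p = 0.934). Irf8, also in the list, did not share that pattern. Its brighter probe set differed by −0.09 and its dimmer one by 0.54, both with groups that overlapped. The interferon receptor and kinase genes of the list, each read by its brightest probe set, had groups that overlapped. Differences were −0.17 for Ifngr1, −0.42 for Ifngr2, 0.004 for Jak1 and 0.08 for Jak2. Probe sets disagreed for Ifngr2, whose dimmer one differed by 0.07, and for Jak1, of which a dimmer one differed by −0.55 with groups that did not overlap.

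Among the genes of folding and trimming in the endoplasmic reticulum, the chaperone Canx differed by 0.12 (SE 0.19) and the disulfide isomerase Pdia3 by −0.20 (SE 0.21), and 4 of 5 had higher means. Among co-stimulatory and other presenting molecules, the lipid-presenting Cd1d1 differed by −0.24 (SE 0.19) and Mr1, which presents vitamin metabolites, by 0.22 (SE 0.23). The dimmer Mr1 probe set differed by −0.25, so its sign depended on the probe set. Neither list had a gene past the threshold.

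The genes whose levels moved most like H2-DMa over the 7 arrays were Rbpms, Ubxn6, Rsad2, Gabpb1 and Ramp1. Likeness was the root mean square distance between log2 profiles, each centred on its mean, over 12392 genes. A gene that did not vary would lie at 0.398 log2 units from H2-DMa. Rbpms, an RNA-binding protein, lay nearest at 0.107. Its levels were 6.30, 6.39 and 6.44 in TFIIA nc/nc and 6.85, 6.70, 6.99 and 7.14 in wild type, and wild-type replicate 2 was the lowest wild-type sample for both genes. Ubxn6, a cofactor of the ATPase p97, lay at 0.155, Rsad2, an antiviral effector induced by interferon, at 0.160, Gabpb1, a subunit of the transcription factor GABP, at 0.164, and Ramp1, a subunit of the CGRP receptor, at 0.165.

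Other presentation genes were not near in profile. Tapbp came closest of them, at 0.273 and rank 242. The rest lay at 0.362 to 0.498, about as far as a gene that did not vary. The genes nearest to H2-DMa all read lower in TFIIA nc/nc, which the choice by likeness to H2-DMa entails.

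**Figure D5:**
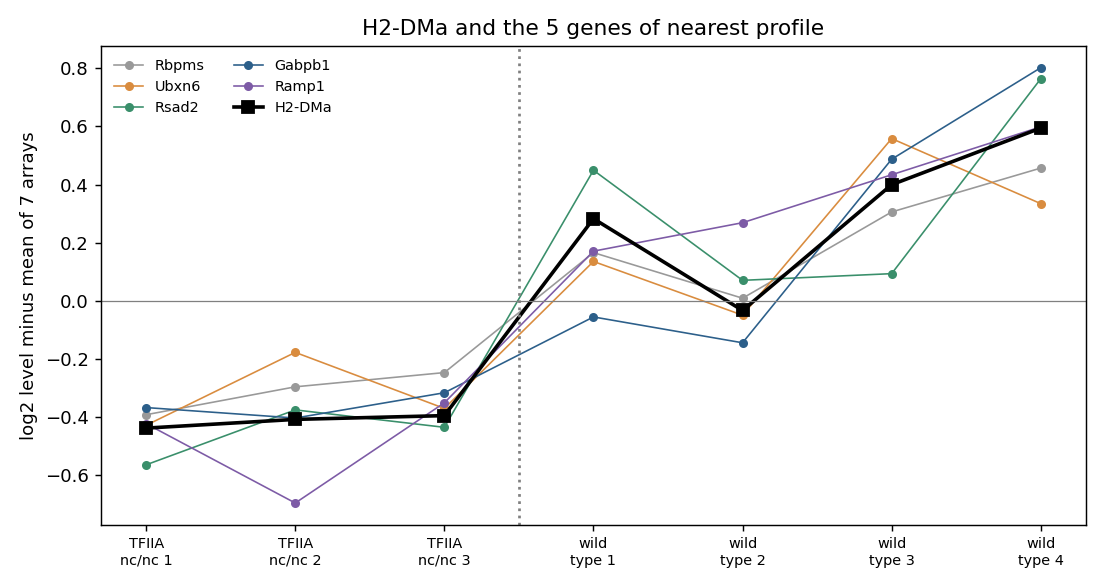
Log2 level minus the mean of the 7 arrays (vertical axis) for H2-DMa (black squares) and the 5 genes of nearest profile, TFIIA nc/nc arrays left of the dotted line and wild-type arrays right of it. Lines join the values of one gene, and replicate numbers have no order. All 6 genes lie below their mean in the 3 TFIIA nc/nc arrays.

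Markers of cells that present antigen on class II were examined beside these levels. Of 6 measured dendritic cell markers, 4 lay below the median probe set in every array, and their mean log2 level overlapped between the genotypes, at 2.90 to 3.26 in TFIIA nc/nc and 2.90 to 3.16 in wild type. The summed linear intensity of the 6, which weighs the brightest gene most, was 80 to 89 in TFIIA nc/nc and 90 to 141 in wild type. The brightest of them, Flt3, is also a receptor of blood progenitors and read 5.40 to 5.75 in TFIIA nc/nc and 5.99 to 6.90 in wild type. Zbtb46, a transcription factor of classical dendritic cells, went the other way with groups that overlapped, at 4.41, 3.97 and 2.92 in TFIIA nc/nc and 2.45 to 3.22 in wild type. Its highest values were in the arrays with high endothelial transcripts, wild-type replicate 1 reading 3.22, and the other arrays read 2.45 to 2.92. The part of endothelial cells in the Zbtb46 levels was not tested. Of 6 B cell markers 5 lay below the median in every array, and Cd79b was the exception. Sums of the 6 were 78 to 110 in TFIIA nc/nc and 103 to 134 in wild type. The mean log2 level of the 6 did not overlap, at 2.67 to 2.78 in TFIIA nc/nc and 2.84 to 3.24 in wild type. Macrophage markers varied more. The 10 measured had sums of 140 to 443 in TFIIA nc/nc and 96 to 264 in wild type, and their mean level was highest in TFIIA nc/nc replicate 3, at 5.17, and lowest in wild-type replicate 3, at 3.00. RMA gives no value of 0, so none of these markers was at 0. The part of these cells in the presentation gene levels was not tested.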

How the data were processed

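Per the submitters' processing notes, the deposited intensity values were made by the authors with RMA in Affymetrix Expression Console, with no version stated in those notes. RMA corrects background, normalizes between arrays and summarises each probe set. Values were linear, so log2 was taken with no pseudocount. Cells were double-sorted and RNA was amplified from the 3' end, per the labels' protocols. Of 22690 probe sets 64 controls were left out. Genes were named from the platform annotation through Entrez identifiers in the RefSeq table of GRCm38.p6, which 12369 of 12393 genes matched. Each gene was represented by its brightest single-gene probe set. Genotypes were compared with limma 3.58.1 in R 4.3.3 (lmFit, eBayes), 2-sided, Benjamini-Hochberg over all genes, threshold 0.05. The fit was tested on simulated data with 200 changed genes, whose shifts were larger than the differences of the presentation genes. That test does not show whether differences as small as theirs would be found.

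The members and lists were chosen with earlier results of these data known. Named were all members, the 2 genes of smallest p in each pathway list where none passed, and the 5 genes nearest to H2-DMa. Ctss, Irf8, Ifngr1, Ifngr2, Jak1, Jak2, H2-D1 and the markers named were chosen after their values were seen, as were the 5 of 9 promoter motifs that are marked. Of 9 lists, the class II ubiquitin ligases had no gene measured alone. Scan dates and detection calls were not used here. Alternatives covered probe sets, filters, scale, normalization, moderation, weights, covariates, a replicate block and leaving out arrays. Plots used matplotlib 3.10.9 in Python 3.11.15.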

Additional observations from a re-analysis of the deposited data

Results flagged for a closer look

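Among 60 sets of 4 wild-type values of presentation and pathway genes, 2 held a sample far from the others, and chance gives about 1 in 20. For Jak2, wild-type replicate 3 read 7.21 against 7.32 to 7.34 in the others, a gap of 0.887 of the range. For Nfyc, wild-type replicate 4 read 6.97 against 7.11 to 7.14, a gap of 0.838 of the range. Neither gene is among the 10 described in detail, and both gaps are small on the log2 scale.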

How the results depend on the processing

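In each of 20 alternative settings, 7 of which leave out 1 array, none of the presentation genes other than H2-DMa passed. H2-DMa kept its lower mean, between −0.89 (sex measure as covariate) and −0.44 (log2(value + 16)). It was chosen on these values and its groups do not overlap, so leaving out arrays could not turn its sign. The adjusted limma p of the other genes ranged from 0.42 to 1. Unadjusted, the limma p was under 0.05 for B2m with the number of embryos (0.0475) and without wild-type replicate 1 (0.00975). For Tapbp it was so with the number of embryos (0.0495) and the sex measure (0.00227). For Tap1 it was so with array weights (0.0213), the replicate block (0.0481) and without TFIIA nc/nc replicate 1 (0.0305). Over all genes such a p was found for 576 in the main fit and 975 with the number of embryos. It was found for 1048 without wild-type replicate 1 and 1123 with the sex measure. The count was 929 with array weights, 788 with the replicate block and 354 without TFIIA nc/nc replicate 1. The median over class I genes stayed below 0: it was −0.21 over every probe set, −0.27 with log2(value + 16), −0.24 with the endothelial mean as covariate, −0.41 in the 4 arrays of low endothelial transcripts, −0.46 with the sex measure, and −0.38 to −0.28 without 1 array. The median over all 6 class II genes, H2-DMa among them, was −0.09 in the main fit and −0.18 to 0.03 without 1 array. Galc and in some settings others passed: 0 among genes above the median level (Galc is dimmer; limma, 392 at an unadjusted p under 0.05) or without moderation (590 at an unadjusted p under 0.05), 2 with the number of embryos (Galc and Lgmn, so 1 pathway gene), 2 in the 4 arrays of low endothelial transcripts, 2 with the sex measure, and 1 to 3 without 1 array, 3 being reached without wild-type replicate 1.

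Signs turned for 6 of the 10 genes, among them Tap1 (−0.33 as reported) and Tap2 (−0.21 as reported). H2-Aa was −0.0322 over every probe set, −0.0254 with array weights, −0.0566 with the endothelial mean, −0.085 with the replicate block, and −0.10 to 0.15 without 1 array. Ciita was −0.0034 by the most variable probe set (interquartile range), −0.0402 with array weights, −0.0183 with the number of embryos, −0.0646 in the 4 arrays of low endothelial transcripts, −0.11 with the sex measure, and −0.068 to 0.0645 without 1 array. H2-Ab1 was 0.0562 by the most variable probe set and over every probe set, and −0.38 to 0.00223 without 1 array. Cd74 was −0.0272 in the 4 arrays and −0.0199 with the sex measure, and −0.0224 to 0.17 without 1 array. Tap2 was 0.20 in the 4 arrays, 0.0417 with the sex measure and −0.38 to −0.04 without 1 array. Tap1 was 0.00062 over every probe set. The cause was not tested, apart from the changed probe sets or arrays. With only genes above the median level, the dim genes were not in the fit, and the medians could not be had.

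No pairing by replicate number is stated in the labels. Deviations of arrays with the same number correlated across genes at 0.382, −0.193 and 0.105. Those of arrays with differing numbers correlated at −0.548 to 0.384. Whether samples shared a litter or a batch cannot be read from these values. With the replicate block, 1 gene passed and H2-DMa differed by −0.63.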

Other observations

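A set of 10 probe sets named several genes, among them one of the pathway, and 8 had lower means in TFIIA nc/nc. Each had groups that overlapped. One of the brighter, naming H2-T23, a nonclassical class I gene, and H2-T-ps, read 7.38, 7.83 and 8.02 in TFIIA nc/nc and 7.91, 8.41, 8.29 and 8.21 in wild type. A probe set naming H2-K1 and H2-D1 averaged 3.95 in TFIIA nc/nc and 4.52 in wild type. The pair naming H2-DMb1 and H2-DMb2, the β chains of DM, averaged 2.46 and 2.80 in TFIIA nc/nc and 2.46 and 2.75 in wild type.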
